A study of Mus musculus with 12 samples.

Results

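The T cell receptor chains of CD8+ T cells from tumors of mice given BF10 were compared with those from tumors of mice given control IgG. Both libraries were taken by their labelled tissue and treatment, and they are 2 of the 12 libraries of the series, with 165633 of its 1502315 listed clonotypes. All 12 libraries came from tumor-bearing wild-type C57BL/6 mice with head and neck carcinoma of the Q1-2 line. Tumors, spleens and tumor-draining lymph nodes (tdLNs) were each sampled under BF10, αCSF1R, IL-10-Fc and control IgG. BF10 is an antibody to CSF-1R, a receptor that macrophages need for survival, fused to the cytokine IL-10. The labels give a dose of 30 mg/kg, equivalent for every agent, 3 times at intervals of 3 days. CD8+ cells were taken with magnetic beads, and 1 library was made from the pooled RNA of 3 mice for each treatment and tissue. A difference between the libraries therefore has no replicate check and no test, and the mice behind a clonotype are not known. The 95% intervals given for shares are exact (Clopper-Pearson) binomial intervals and cover counting error only.

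A T cell makes its receptor by joining a V, a D and a J segment for the β chain and a V and a J segment for the α chain, with bases trimmed and added at the joints. The joint encodes the CDR3 loop, which touches the peptide in the MHC groove, and each new joint is close to unique. When a T cell meets its antigen it divides, and all daughters keep the same chains. A large clonotype can be a clone that has grown or whose cells carry much receptor RNA. It can also sum several clones, since different joints can encode the same CDR3 amino acids. Fewer cells of a clone and less receptor RNA per cell cannot be told apart in these libraries.

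Entries of 1 chain with the same V label, J label and CDR3 amino acids were taken as 1 clonotype, and its size is the number of its unique molecular identifiers (UMIs) with at least 3 reads. The control IgG library held 104036 UMIs of the β chain (TRBC) in 8926 clonotypes and 79926 of the α chain (TRAC) in 8959. The BF10 library held 175080 TRBC UMIs in 83269 clonotypes and 117661 TRAC UMIs in 50313. The IL-10-Fc and αCSF1R tumor libraries held 130104 and 32784 TRBC UMIs, and 98821 and 23650 TRAC UMIs. UMI counts of these libraries are therefore not on 1 scale. A count of 3 UMIs, taken as the smallest share that can be read, was 0.00288% of TRBC in the control library and 0.00171% in the BF10 library. Clonotypes with a share of 0.1% or more in their chain are called expanded, a name for their size only. There were 74 of them for TRBC in the control library, with 51.1% of UMIs, and 3 in the BF10 library, with 0.517%. For TRAC, 75 expanded clonotypes held 39.3% of control UMIs, and 3 held 0.435% of BF10 UMIs. Only receptor chains were sequenced, so the CD8 label could not be checked against its marker genes. The TRAC chain of invariant NKT cells, Trav11 or Trav11d with Traj18, took 19 UMIs in the control and 18 in the BF10 tumor library, against 534 and 386 in the spleens of the same treatments. That of MAIT cells, Trav1 with Traj33, took 1 UMI in the control and 14 in the BF10 tumor library, and 23 and 8 in those spleens.

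The CDR3s below are the clonotypes on which the differences turned: the leading β and α chains of each library, and the chains that both libraries listed at high counts. CDR3s of at most 14 residues are given as amino acids.
Trbv5 with Trbj1-2, leading β chain of control IgG: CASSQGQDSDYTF
Trbv17 with Trbj1-1, listed in both: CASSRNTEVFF
Trbv19 with Trbj2-1, control IgG: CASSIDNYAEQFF
Trbv19 with Trbj2-7, control IgG: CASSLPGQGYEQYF
Trbv12-1 with Trbj1-6, control IgG: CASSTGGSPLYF
Trbv16 with Trbj2-7, leading β chain of BF10: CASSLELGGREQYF
Trbv3 with Trbj2-7, BF10: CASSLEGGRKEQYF
Trbv29 with Trbj1-4, BF10: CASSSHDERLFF
Trbv20 with Trbj2-4, listed in both: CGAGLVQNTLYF
Trav9n-3 with Traj9, leading α chain of control IgG: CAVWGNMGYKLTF
Trav16n with Traj48, control IgG: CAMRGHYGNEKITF
Trav14d-3-dv8 or Trav14n-3 with Traj22, leading α chain of BF10: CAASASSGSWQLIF

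The nucleotide sequences of some of these show how each joint was made. Capitals mark the bases that match neither the germline end of the V segment nor the germline start of the J segment (GRCm38), and may be bases of a D segment or added bases. The first 6 are among those that encode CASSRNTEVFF. They are numbered by their UMIs in the control library and are not the 6 largest for that CDR3.
sequence 1: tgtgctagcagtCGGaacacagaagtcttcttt
sequence 2: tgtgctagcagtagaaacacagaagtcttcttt
sequence 3: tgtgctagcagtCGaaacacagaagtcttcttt
sequence 4: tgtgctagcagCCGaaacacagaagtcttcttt
sequence 5: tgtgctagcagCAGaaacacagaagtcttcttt
sequence 6: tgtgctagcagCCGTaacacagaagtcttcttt
Trbv5 with Trbj1-2, control IgG: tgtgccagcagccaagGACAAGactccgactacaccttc
Trbv20 with Trbj2-4, control IgG: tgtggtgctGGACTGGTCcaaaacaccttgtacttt
Trbv20 with Trbj2-4, BF10: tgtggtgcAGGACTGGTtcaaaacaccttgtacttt
Trbv3 with Trbj2-7, BF10: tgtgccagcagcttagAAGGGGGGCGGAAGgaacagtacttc
Trav5d-4 with Traj53, larger in control IgG: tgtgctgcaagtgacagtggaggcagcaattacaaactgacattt
Trav5d-4 with Traj53, larger in BF10: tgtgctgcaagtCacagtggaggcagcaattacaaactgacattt
Trav14 genes with Traj22, BF10: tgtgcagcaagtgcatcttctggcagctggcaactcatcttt

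The first question was whether the BF10 library used other β chain segments than the control library. Weighted by UMIs it did: Trbv5, Trbv17 and Trbv26 took more of the control library, and Trbv29 and Trbv3 took more of the BF10 library. Trbv5 (chr6:41062332-41062803, GRCm38, a TR_V_gene of the β locus) had 14572 TRBC UMIs in the control library, or 14.01% (13.8% to 14.2%), and 4263 in the BF10 library, or 2.43% (2.36% to 2.51%). Trbv17 (chr6:41163062-41163556) took 9.26% (9.09% to 9.44%) of control and 4.39% (4.29% to 4.49%) of BF10 UMIs. Trbv26 took 5.75% (5.61% to 5.89%) and 2.66% (2.59% to 2.74%). In the other direction, Trbv29 (chr6:41271394-41271881) took 5.91% (5.77% to 6.05%) of control and 14.5% (14.3% to 14.6%) of BF10 UMIs. Trbv3 took 3.37% (3.26% to 3.48%) and 7.75% (7.63% to 7.88%). Of the 20 Trbv genes with at least 0.5% of UMIs in either library, 13 (65%) differed at least 1.5-fold, 7 higher in BF10 and 6 higher in control, and 8 of them differed at least 2-fold. Shares add up to the whole of a chain, and expanded clonotypes held 51.1% of control UMIs. The control share of a gene without any is lowered by that alone. Trbv3 had none in the control library, and without expanded clonotypes it took 6.90% of control and 7.62% of BF10 UMIs.

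Most of these differences were smaller when each clonotype was counted once, a measure that gives clonotypes of every size the same weight. Close variants of the sequence of a large clonotype still count on their own in it. Then 3 of 20 Trbv genes (15%) differed at least 1.5-fold and 0 at least 2-fold. Trbv17 took 3.82% of control and 4.19% of BF10 clonotypes, Trbv26 3.09% and 2.61%, and Trbv3 6.63% and 7.09%. The largest remaining difference was that of Trbv29, with 8.56% (7.99% to 9.16%) of control and 13.4% (13.2% to 13.6%) of BF10 clonotypes. Behind it came Trbv12-2 with 7.27% and 5.49%, Trbv5 with 4.25% and 2.59%, Trbv13-2 with 7.05% and 5.48%, and Trbv20 with 2.49% and 1.496%. Each of these 4 was higher in the control library. When close nucleotide sequences were merged, Trbv5 took 3.74% and 2.59% of clonotypes, which is below 1.5-fold.

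**Figure D1:**
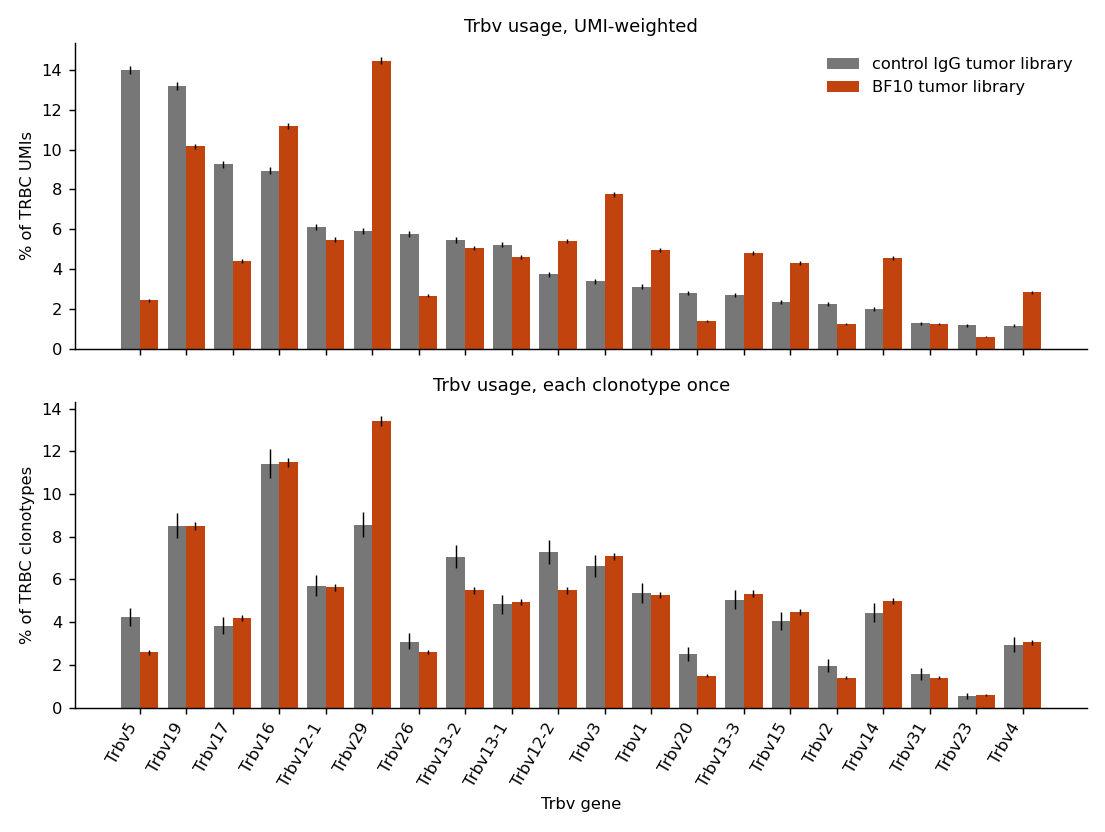
Share of each Trbv gene, in % of TRBC UMIs (top) and in % of TRBC clonotypes (bottom), in the control IgG (grey) and BF10 (orange) tumor libraries, with bars for the exact 95% binomial interval of the counts and 1 library a side. Trbv5 stands at 14.01% of control UMIs in the upper panel and at 4.25% of control clonotypes in the lower one, while Trbv29 is higher in BF10 in both.

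A few clonotypes held most of the UMIs of several segments in the control library. For Trbv5, 7 expanded clonotypes held 12712 of its 14572 UMIs, or 87.2%, and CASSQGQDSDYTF alone held 76.2%. For Trbv17, 5 expanded clonotypes held 76.8%, of which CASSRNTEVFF made 59.5% of all Trbv17 UMIs. Trbv26 differed in that its 74.2% came from 8 clonotypes with at most 26.2% each. In contrast, Trbv29 had 1 expanded clonotype with 15.3% of its control UMIs, and Trbv3 had none, its largest holding 60 UMIs. The mean size of a Trbv5 clonotype was 38.4 UMIs in the control and 1.98 in the BF10 library, and that of a Trbv29 clonotype was 8.05 and 2.27.

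Trbv29 thus differed between the libraries outside the expanded clonotypes as well. With expanded clonotypes left out, it took 10.2% of control and 14.5% of BF10 UMIs, and with both libraries brought to the same UMI total it took 8.56% and 13.4% of clonotypes. Over the other libraries its share of clonotypes did not go with BF10 in 1 direction. In the remaining tumor libraries it was 9.48% (αCSF1R) and 13.6% (IL-10-Fc), in spleens 9.65% under BF10, 13.0% under αCSF1R, 13.6% under IL-10-Fc and 12.0% under control IgG, and between 7.80% and 8.32% in the 4 tdLN libraries. The BF10 tumor library thus lay near the IL-10-Fc tumor library and the spleen libraries of IL-10-Fc and αCSF1R, and the control tumor library near those of the tdLNs. The pairs of Trbv29 that differed most by clonotypes were with Trbj2-7 (1.40% of control, 2.52% of BF10 clonotypes), Trbj2-1 (1.03% and 1.72%) and Trbj2-4 (0.515% and 1.14%).

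**Figure D2:**
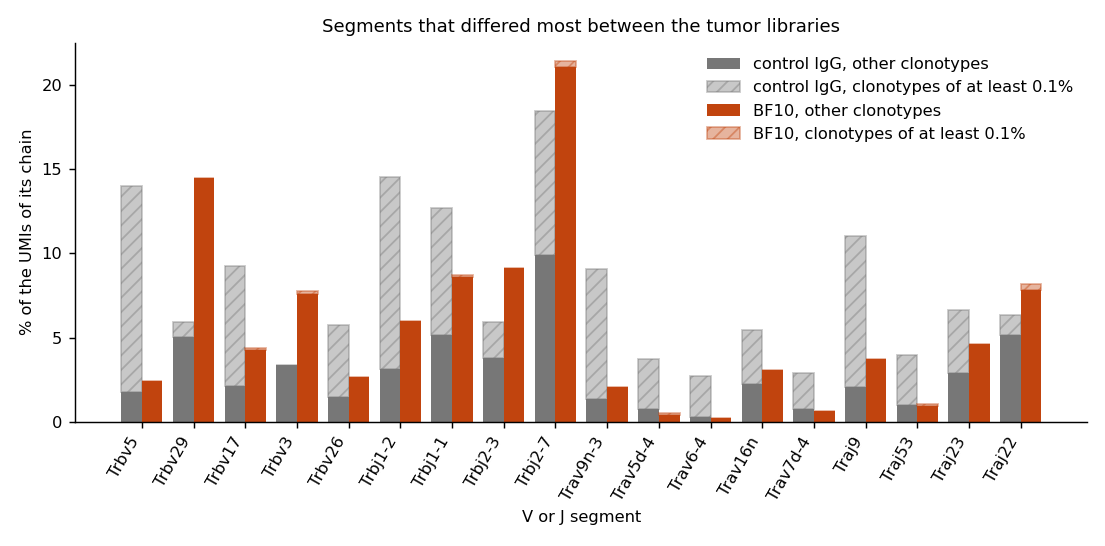
Share of the UMIs of its chain, in %, for the V and J segments with the largest differences, with clonotypes of at least 0.1% hatched and all others in solid colour, for control IgG (grey) and BF10 (orange) tumor libraries. The hatched part makes 87.2% of the control bar of Trbv5 and 84.9% of that of Trav9n-3, and 15.3% of that of Trbv29.

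The J segments of the β chain differed as well. The β locus holds its J segments in 2 clusters, each with its own constant region gene. Trbj1-2 (chr6:41534001-41534048) took 14.5% of control and 5.99% of BF10 UMIs, and Trbj1-1 took 12.7% and 8.74%. Higher in BF10 were Trbj2-3, with 5.90% of control and 9.13% of BF10 UMIs, and Trbj2-7, with 18.5% and 21.4%. Of the 12 Trbj genes, 4 (33.3%) differed at least 1.5-fold by UMIs and 0 (0%) did by clonotypes. Segments of the first cluster made 42.6% of control UMIs and 30.0% of BF10 UMIs, against 28.9% to 35.7% in the other 10 libraries. By clonotypes the first cluster made 33.1% and 30.5%.

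Single pairs of V and J showed the largest ratios. Trbv5 with Trbj1-2 took 10.8% of control UMIs (10.66% to 11.04%) and 0.0897% of BF10 UMIs (0.0762% to 0.105%), a ratio of 121. This pair also differed by clonotypes, with 66 of 8926 (0.739%) against 91 of 83269 (0.109%), a ratio of 6.77. How many of the 66 were close variants of the leading clonotype was not tested. Merging close nucleotide sequences lowered Trbv5 as a whole from 4.25% to 3.74% of control clonotypes. Trbv17 with Trbj1-1 took 5.78% and 0.451% of UMIs, Trbv19 with Trbj2-1 5.39% and 1.58%, and Trbv12-1 with Trbj1-6 2.05% and 0.0874%. In each of these pairs the leading clonotype named above held most of the control UMIs of the pair, and in Trbv17 with Trbj1-1 it held 95.4%.

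The α chain has many more V and J segments, and here too the UMI shares were the further apart. Trav9n-3 (chr14:53231433-53232102) took 9.09% of control and 2.07% of BF10 UMIs, and Trav5d-4 (chr14:53001713-53002232) took 3.73% and 0.525%. Trav6-4 took 2.72% and 0.212%, Trav16n 5.44% and 3.10%, and Trav7d-4 2.92% and 0.636%. All 5 were higher in the control library. In 4 of them 1 clonotype held most of the control UMIs: 84.9% for Trav9n-3, 77.0% for Trav5d-4, 90.6% for Trav6-4 and 56.0% for Trav7d-4. Of 67 V labels with at least 0.5% of UMIs in either library, 47 (70.1%) differed at least 1.5-fold, 30 higher in BF10 and 17 higher in control. By clonotypes, 15 of 70 (21.4%) did, 9 higher in BF10 and 6 higher in control. Expanded clonotypes held 39.3% of control UMIs, which lowers the control UMI share of each label that had none. By UMIs, the labels higher in BF10 are therefore not independent of the expanded clonotypes of other labels. How much of each such difference remained without them was not counted for all labels. The V region was left between several genes for 14.1% of control and 27.2% of BF10 TRAC UMIs, so these shares depend on how such labels were assigned.

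By clonotypes the largest differences of single α chain V labels were near 1 percentage point or below. Trav16n took 2.82% of control and 1.79% of BF10 clonotypes, Trav9n-3 2.92% and 2.05%, Trav3-1 1.42% and 2.09%, and Trav7d-2 2.60% and 3.28%. The label that covers Trav14-1, Trav14-2, Trav14n-1 and Trav14n-2 took 0.949% and 1.91%. The Trav14 family as a whole was higher in the BF10 library by both measures, at 8.97% and 14.9% of UMIs and at 11.4% and 13.9% of clonotypes.

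Among α chain J segments, Traj9 (chr14:54209393-54209450) took 11.1% of control and 3.70% of BF10 UMIs, Traj53 3.96% and 1.03%, and Traj23 6.64% and 4.62%. Expanded clonotypes held 81.3%, 75.4% and 56.8% of their control UMIs. Traj22 changed its direction with the measure, with 6.34% of control and 8.18% of BF10 UMIs but 7.41% and 5.96% of clonotypes. Of 39 Traj segments, 18 (46.2%) differed at least 1.5-fold by UMIs, and of 40 segments 2 (5%) did by clonotypes. Both of these were higher in BF10, and Traj4 was one of them, with 1.25% and 1.97% of clonotypes. Traj31 took 4.24% and 4.98%, and Traj17 took 2.14% and 2.75%. The pair Trav9n-3 with Traj9 took 7.92% of control and 0.147% of BF10 UMIs, and 0.580% and 0.123% of clonotypes. Trav5d-4 with Traj53 took 3.09% and 0.139% of UMIs, Trav6-4 with Traj23 2.51% and 0.0357%, and Trav16n with Traj48 1.79% and 0.0790%. By clonotypes, Trav6-4 with Traj23 took 0.246% and 0.0258%, Trav12n-3 with Traj23 0.324% and 0.137%, and Trav13-4-dv7 with Traj57 0.190% and 0.0318%. Merging close nucleotide sequences lowered Trav6-4 as a whole from 0.614% to 0.394% of control clonotypes, and Trav9n-3 from 2.92% to 2.66%. Their BF10 shares after merging were 0.264% and 2.04%. The pairs themselves were not counted after merging.

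The size of the whole difference in segment use was summarised as a distance, the sum of the share differences over all segments that were higher in 1 of 2 libraries, which is 0 for equal use and 100 percentage points for no shared segment. Between the control and BF10 tumor libraries the TRBC V distance was 27.3 percentage points by UMIs and 7.39 by clonotypes, and the J distance was 14.7 and 2.98. For TRAC, the V distance was 29.6 and 10.6, and the J distance 20.9 and 5.13. The spleens of the same treatments were closer, with a TRBC V distance of 6.38 by UMIs and 4.09 by clonotypes, and so were their tdLNs, with 4.93 and 4.61. For TRAC V, these were 5.84 and 4.12 in spleens and 9.17 and 5.998 in tdLNs. Counting error adds to a distance, more so with few clonotypes, and was not subtracted. The control spleen library held 74305 TRBC and 47400 TRAC clonotypes, against 8926 and 8959 in the control tumor library. The tdLN libraries were unlike in reads per UMI: 8.26% of BF10 and 40.9% of control TRBC UMIs had at least 7 reads.

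The BF10 library was close to some libraries and far from others. The BF10 tumor library lay 3.50 percentage points from the IL-10-Fc tumor library by TRBC V UMIs, 8.51 from its own spleen library and 32.9 from the αCSF1R tumor library. The control tumor library lay 27.4 from its own spleen library, and 26.6 and 27.3 from the tumor libraries of IL-10-Fc and αCSF1R. When the control library was divided, its 74 expanded TRBC clonotypes lay 50.2 from the BF10 library, and its other 8852 clonotypes lay 7.68. For TRAC the same values were 67.0 and 10.1. These comparisons share libraries and are not independent of each other.

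**Figure D3:**
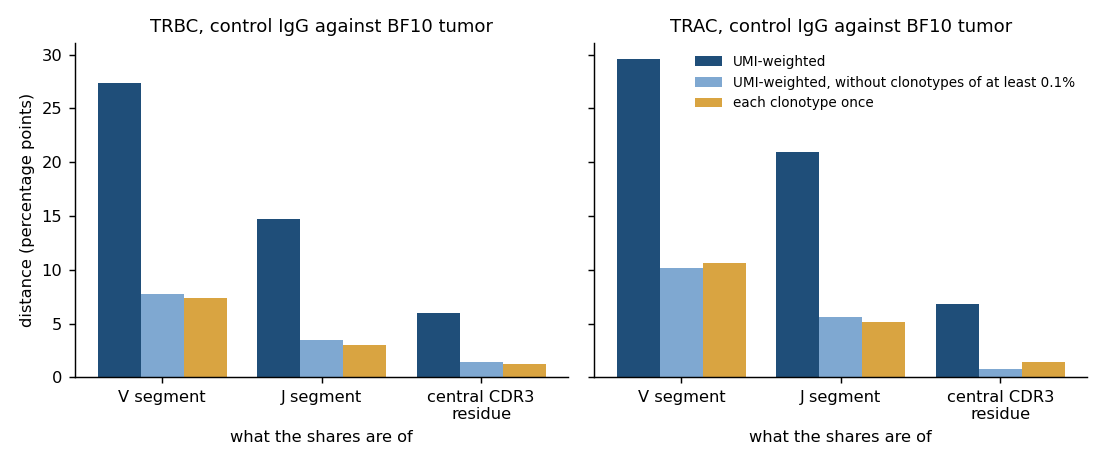
Distance between the control IgG and BF10 tumor libraries in percentage points for V segments, J segments and central CDR3 residues, for TRBC (left) and TRAC (right), by UMIs (dark blue), by UMIs without clonotypes of at least 0.1% (light blue) and by clonotypes (yellow). The TRBC V bar is 27.3 by UMIs and 7.39 by clonotypes, and the light bar beside it is close to the latter.

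The CDR3 loop of the β chain was shorter in the control library by UMIs. The most frequent length was 13 residues in the control library, with 28.1% (27.8% to 28.4%) of UMIs, and 14 residues in the BF10 library, with 31.4%. The mean was 13.58 residues in control and 13.87 in BF10, and by clonotypes it was 13.95 in both. CDR3s of 11 residues, the length of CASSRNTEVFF, took 8.24% of control and 4.92% of BF10 UMIs, and CDR3s of at least 16 residues took 7.64% and 11.4%. Without the expanded clonotypes the mean was 13.99 in control and 13.87 in BF10. When CDR3s over 25 residues, which held 67 control and 30 BF10 UMIs, were left out as well, it was 13.87 and 13.86, so the control library was then not the shorter one. The α chain CDR3s were longer in the control library, with means of 13.77 and 13.56 residues by UMIs and 13.68 and 13.60 by clonotypes. There, 12 residues took 9.87% of control and 14.9% of BF10 UMIs, and 16 residues took 8.42% and 5.76%.

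**Figure D4:**
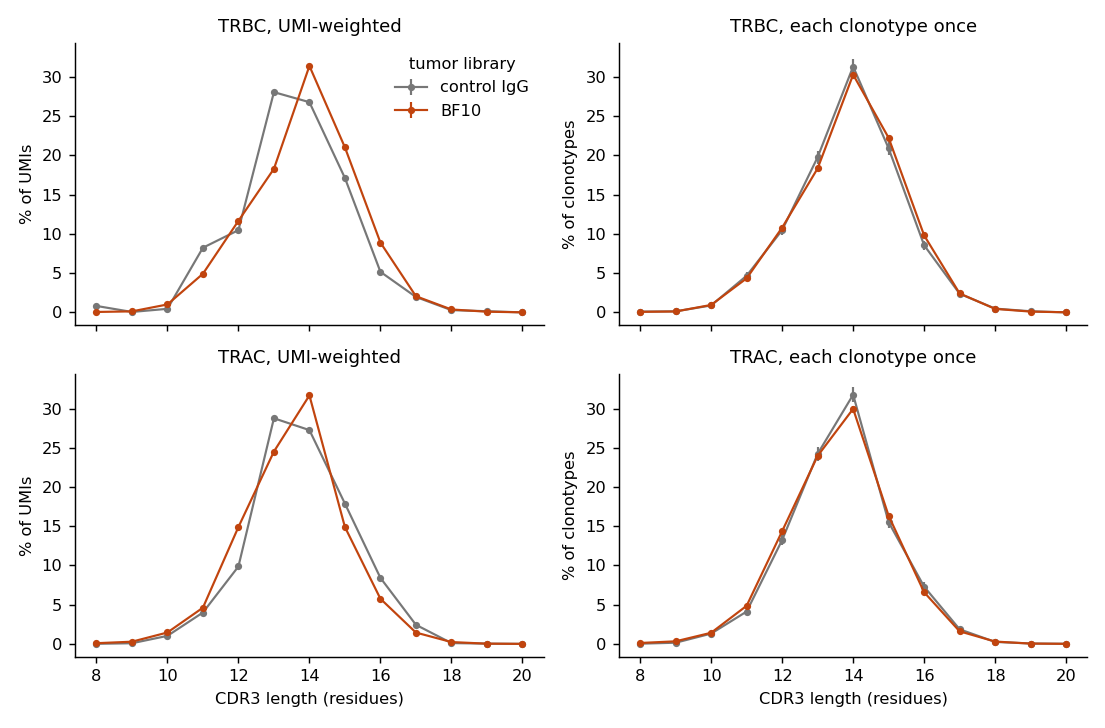
Share of UMIs (left) and of clonotypes (right), in %, at each CDR3 length in residues for TRBC (top) and TRAC (bottom) in the control IgG (grey) and BF10 (orange) tumor libraries, with bars for the exact 95% binomial interval. By UMIs the control curves peak at 13 and the BF10 curves at 14 residues, and by clonotypes all 4 curves peak at 14.

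The residues in the middle of the loop, taken without the first 3 and the last 3, differed by UMIs as well. In the β chain, glutamine took 7.40% of control and 5.01% of BF10 central residues, aspartate 8.86% and 6.91%, and proline 3.86% and 3.13%. Higher in BF10 were alanine with 5.09% and 6.46%, threonine with 8.18% and 9.48%, and leucine with 4.08% and 4.79%. The BF10 values were near those of the spleen of control mice, where glutamine took 5.12% and aspartate 7.05%. The leading control clonotype has 2 glutamines and 2 aspartates among its 7 central residues and supplied 38.1% of all control glutamines and 31.8% of the aspartates counted by UMIs. By clonotypes, no residue of the β chain differed by more than 0.345 percentage points, that of threonine.

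In the α chain, tyrosine took 8.05% of control and 6.67% of BF10 central residues, methionine 2.34% and 1.24%, and aspartate 5.61% and 4.56%. Alanine took 5.31% and 7.18%, threonine 4.63% and 6.19%, and serine 13.9% and 15.3%. The leading control clonotype, with Trav9n-3 and Traj9, supplied 42.4% of the control methionines. The distance over all 20 residues was 5.98 percentage points for TRBC and 6.77 for TRAC by UMIs, and 1.24 and 1.45 by clonotypes. The mean charge of the central part counts lysine and arginine against aspartate and glutamate. By UMIs it was -0.877 in control and -0.739 in BF10 for TRBC, and 0.200 and 0.375 for TRAC. By clonotypes it was -0.747 and -0.739 for TRBC, and 0.359 and 0.408 for TRAC.

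The bases between the germline parts of V and J, the capitals in the sequences above, were fewer in the control β chains by UMIs. Their mean was 9.02 bases in the control and 10.1 in the BF10 library. With each nucleotide sequence counted once the order was the opposite, with 10.8 and 10.2. A germline part ends at the first base that differs, so a single changed base, an error included, can lengthen this count. Merging close sequences removed 7.73% of control and 0.152% of BF10 TRBC nucleotide clonotypes. Whether the opposite order holds after merging was not tested. Nucleotide clonotypes of at least 0.1% had in the control library 7.63 such bases by UMIs and the others 10.4, and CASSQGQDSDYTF has 6. In the α chain, the means by UMIs were 3.62 and 3.33. Chains with no such base made 1.10% of control and 0.636% of BF10 TRBC UMIs, and 13.6% and 14.01% of TRAC UMIs.

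Most clonotypes of the control library, several of the largest included, were not listed in the BF10 library. Of all control clonotypes, 15.0% for TRBC and 23.1% for TRAC were listed there. Between the spleens of the same treatments these shares were 11.2% and 18.9%. The 10 leading TRBC clonotypes of the control library held 33145 UMIs (31.9%), and 4 of them were listed in the BF10 library, with 274 UMIs together. The first, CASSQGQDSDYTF, had 11102 UMIs in the control and 0 in the BF10 tumor library, which makes its share at least 6228-fold lower in BF10 when 3 UMIs are taken as the floor of the library. It was listed in 2 libraries, with 56 UMIs in the control tdLNs. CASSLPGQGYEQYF (2816 control UMIs) and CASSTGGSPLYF (1961) also had 0 in BF10, while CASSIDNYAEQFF had 4448 in control and 5 in BF10, with different main nucleotide sequences (2 and 4 bases outside the germline parts). In the αCSF1R tumor library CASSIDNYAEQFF had 1310 UMIs, or 4.00% of TRBC, against 4.28% in the control tumor library.

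For TRAC, the 10 leading control clonotypes held 17470 UMIs (21.9%), and 1 was listed in the BF10 library, with 19 UMIs. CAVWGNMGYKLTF had 6169 UMIs in the control and 0 in the BF10 library, a share at least 3027-fold lower in BF10. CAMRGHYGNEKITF had 1368 and 0. The leading control clonotypes of Trav6-4 with Traj23 (1974 UMIs) and of Trav7d-4 with Traj32 (1308) had 0 in BF10 as well.

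The leading clonotypes of the BF10 library were small. Its 10 leading TRBC clonotypes held 1683 UMIs (0.961%), from 355 down to 90 each. Of these, 3 were listed in the control library, and of all BF10 TRBC clonotypes 1.61% were. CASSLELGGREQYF had 355 UMIs in BF10 (0.203%) and 1 in control tumors, with 1447 (1.11%) in IL-10-Fc and 339 (1.03%) in αCSF1R tumors. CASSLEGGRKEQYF had 296 UMIs in BF10 tumors, 126 in BF10 tdLNs, 3 in BF10 spleens and 0 in the other 9 libraries. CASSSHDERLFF had 129 UMIs in BF10 tumors, 8 in BF10 tdLNs and 0 elsewhere. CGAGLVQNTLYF had 125 UMIs in BF10 and 59 in control tumors, 25 in BF10 tdLNs, 10 in BF10 spleens and 0 in the other 8. The 2 tumor libraries encoded it by the different nucleotide sequences shown above, with different splits between germline and other bases.

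Many, but not all, of the leading α chains of BF10 were shared by most libraries. Of its 10 leading TRAC clonotypes, which held 1237 UMIs (1.05%), 7 were listed in the control library. Of all BF10 TRAC clonotypes, 4.11% were. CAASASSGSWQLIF with Traj22 appeared under 4 Trav14 labels with 200, 189, 109 and 105 UMIs in BF10 and 95, 112, 24 and 28 in control, with the germline bases of V and J and no other base in its main sequence. Under each label it was listed in at least 11 of the 12 libraries. In contrast, the leading clonotypes of Trav1 with Traj12, Trav16n with Traj22 and Trav5d-4 with Traj53 were listed in 2, 3 and 4 libraries. In the spleens of control mice the 4 Trav14 labels of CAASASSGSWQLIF had 218, 219, 125 and 105 UMIs.

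Trav5d-4 with Traj53 gave a pair of close relatives that both tumors held in opposite order. The version with no base outside the germline parts had 2298 UMIs in control (2.88%) and 19 in BF10 tumors (0.0161%). In IL-10-Fc tumors it had 151 (0.153%) and in αCSF1R tumors 52 (0.220%). The version with 1 such base had 123 UMIs in BF10, 72 in control, 62 in IL-10-Fc and 0 in αCSF1R tumors, and it made 75.0% of all BF10 UMIs of Trav5d-4 with Traj53 (164) against 2.92% of those in control (2466). In spleens these 2 segments together took between 0.00637% and 0.0174% of TRAC UMIs, and in tumors between 0.139% and 3.09%. Their share thus stood higher in all 4 tumor libraries than in any spleen library.

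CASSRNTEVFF, with Trbv17 and Trbj1-1, was the only TRBC clonotype among the 10 leading ones of both tumor libraries. It had 5732 UMIs in control tumors, or 5.51% (5.37% to 5.65%), and 254 in BF10 tumors, or 0.145% (0.128% to 0.164%). In αCSF1R tumors it had 653 UMIs (1.99%) and in IL-10-Fc tumors 463 (0.356%). In the tdLNs it had 40 UMIs under BF10, 35 under αCSF1R, 120 under IL-10-Fc and 70 under control IgG, or 0.0166% to 0.0648% of TRBC. The spleens had 3, 3, 9 and 2 in the same order, or at most 0.00539%. It was therefore listed in all 12 libraries, with its share highest in tumors and lowest in spleens under each treatment.

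Many different joints encoded this CDR3. The control library listed 24 nucleotide sequences for it, 8 of them with at least 10 UMIs, and the BF10 library listed 3. Counting nucleotide sequences with at least 3 UMIs each, it had 13 in the control library, the most of any control TRBC clonotype, with 10 for the next, and the most for any TRBC clonotype of the BF10 library was 5. Its leading nucleotide sequence held 32.2% of its control UMIs, and that of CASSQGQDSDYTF held 99.4%. Sequence 2, made of germline bases alone, had 924 UMIs in control, 384 in IL-10-Fc, 233 in αCSF1R and 199 in BF10 tumors and was listed in 11 of the 12 libraries. Sequence 5 had 270 UMIs in control and 5 in BF10. Sequence 1 (1843 control UMIs), sequence 3 (568), sequence 4 (298) and sequence 6 (63) had 0 in BF10. Several of these differ from each other by 1 or 2 bases, and how many arose by errors in amplification or sequencing was not tested.

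**Figure D5:**
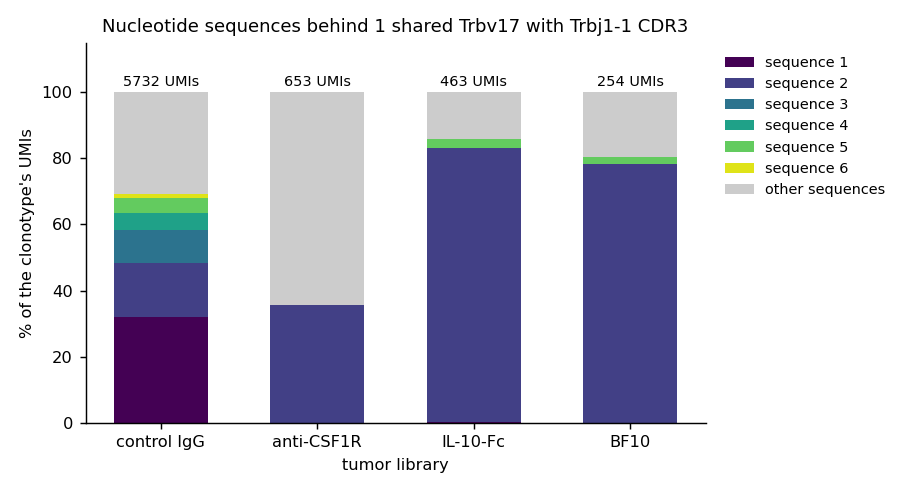
Share, in %, of the UMIs of the Trbv17 with Trbj1-1 clonotype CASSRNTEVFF that each nucleotide sequence held in the 4 tumor libraries, numbered as in the text, with all sequences that the text does not print in grey, whatever their size, and its UMIs above each bar. The control bar holds 6 numbered sequences with none above 32.2%, and sequence 2 makes 78.3% of the BF10 bar.

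Clonotypes listed in both tumor libraries had shorter joints than the rest. For TRBC, 1338 clonotypes were shared, 15.0% of the control and 1.61% of the BF10 clonotypes, with 23.1% of control and 3.07% of BF10 UMIs. They had on average 8.11 bases between the germline parts in the control library and 7.93 in the BF10 library, against 11.3 and 10.3 for clonotypes listed in 1 of the 2. Close sequences were not merged for these means. For TRAC, 2069 were shared, 23.1% of control and 4.11% of BF10 clonotypes, with means of 2.58 and 2.47 bases against 4.91 and 3.76. Of the shared TRBC clonotypes, the highest counts on the lower side were those of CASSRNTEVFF (254), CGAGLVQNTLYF (59) and a clonotype of Trbv16 with Trbj2-7 (25 in control and 31 in BF10). For TRAC they were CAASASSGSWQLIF under 2 labels (112 and 95 in control) and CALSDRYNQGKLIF with Trav12n-3 and Traj23, with 255 UMIs in control and 76 in BF10.

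The γ and δ chains (TRGC and TRDC) differed in their segments as well, and the cells that carried them are not known. Trgv2 took 77.5% of TRGC UMIs in the control library and 47.4% in the BF10 library. Trgv5 took 11.1% and 11.2%, and the label that covers Trgv1 and Trgv3 took 1.08% and 13.0%. Of the UMIs of all chains, Trgv2 took 2.64% in control and 0.189% in BF10, and Trgv5 0.377% and 0.0447%. The label of Trgv1 and Trgv3 took 0.0369% and 0.0518% of them. Among δ chains, Trdv4 took 51.0% of control and 8.11% of BF10 UMIs, Trav13-4-dv7 17.0% and 7.23%, and Trdv2-2 6.12% and 32.5%. As a share of the UMIs of all chains, Trdv4 stood at 0.438% (0.409% to 0.469%) in control and 0.0406% (0.0337% to 0.0486%) in BF10, and Trdv2-2 at 0.0526% (0.0428% to 0.0639%) and 0.162% (0.148% to 0.178%). The 2 δ segments thus differed in opposite directions. A single clonotype, listed in all 12 libraries, held 525 of the 842 control Trdv4 UMIs. In the αCSF1R and IL-10-Fc tumor libraries Trdv4 took 83.0% and 5.50% of TRDC UMIs, and Trdv2-2 took 4.28% and 34.4%. The totals behind these shares were 6555 TRGC and 1651 TRDC UMIs in control and 1174 and 1479 in BF10.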

How the data were processed

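The authors made 1 TCR library per treatment and tissue from 100 ng of CD8+ T cell RNA, sequenced it on an Illumina system and grouped reads by UMI in Qiagen's portal, which assigned V, J and CDR3. The authors deposited, per clonotype, counts of UMIs at read minimums from 3 to 7, and a fraction of the chain's UMIs, which was not used. The labels name mm10. The germline reference of the portal is not given in the sources used here.

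Counts were summed by chain, V region, J region and CDR3 amino acids, and shares were taken by UMIs and with each clonotype once. With 1 library per treatment and tissue no test was run, and shares have exact binomial intervals at 95%. Segments were called at 1.5-fold with at least 0.5% in either library. Germline ends of V and J came from the GRCm38 genome and GENCODE M21, and bases matching neither were counted for 99.6% of control and of BF10 TRBC UMIs. Named were, per chain and measure, the 5 V, 4 J and 4 V-J differences, the 10 leading clonotypes of each library, the shared clonotypes with the highest lower count, 3 residues each way, and the 2 leading γ and δ V segments. Members and lists were chosen with earlier results of these data known. Steps were tested on simulated data. The tools were matplotlib 3.10.9, scipy 1.17.1, pandas 2.3.3 and numpy 2.4.6 under Python 3.11.15. UMIs with at least 7 reads, clonotypes with at least 2 UMIs, merging of close sequences, equal UMI totals, nucleotide clonotypes, single V genes, whole CDR3s, a 2-fold threshold and the removal of expanded clonotypes were the alternatives. The other libraries served as context only. Some nucleotide sequences are not reported here.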

Additional observations from a re-analysis of the deposited data

Results flagged for a closer look

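Taken here were the 10 V segments with the largest tumor differences by UMIs, 5 per chain. For 7 of them the BF10 minus control difference had the opposite sign in spleens, with spleen intervals that did not overlap. How many of all V segments did so was not counted. The difference between tissues was not tested, since each tissue has 1 library a side. Trbv29 was 8.56 percentage points of TRBC UMIs higher in BF10 tumors, and its BF10 minus control difference in spleens was -3.78 (13.2% in control and 9.39% in BF10 spleens). Trbv3 likewise was 4.38 higher in BF10 tumors and had a spleen difference of -1.29. The other 5 were lower in BF10 tumors and slightly higher in BF10 spleens. Their spleen differences were 0.54 for Trbv5 and 0.574 for Trbv26 among TRBC UMIs, and 0.188 for Trav9n-3, 0.0745 for Trav6-4 and 0.256 for Trav16n among TRAC UMIs. In tdLNs the Trbv29 difference was 1.27 and that of Trbv3 was -0.573.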

How the results depend on the processing

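Of 98 alternative values, 67 moved by less than the counting error, or for counts of segments by less than 1.5 times, 29 moved further and 2 changed their sign. Of the 67, 5 also changed sign, all of the TRBC length difference by clonotypes, which was 0.00144 and went to between -0.0580 and -0.00909. Merging a CDR3 1 base from one at least 10 times larger, equal UMI totals and nucleotide clonotypes moved none of these values beyond that, although merging removed 7.73% of the control and 0.152% of the BF10 TRBC nucleotide clonotypes. Without clonotypes of at least 0.1%, the distances by UMIs were 7.74 for TRBC V, 3.49 for TRBC J, 1.44 for TRBC composition, 10.2 for TRAC V, 5.61 for TRAC J and 0.786 for TRAC composition. The mean length difference by UMIs, BF10 minus control, went from 0.285 to -0.115 residues for TRBC and from -0.215 to -0.0836 for TRAC. With UMIs of at least 7 reads, the distances by UMIs were 27.9 for TRBC V, 14.4 for TRBC J, 5.79 for TRBC composition and 30.5 for TRAC V, and by clonotypes 9.28 for TRBC V and 12.1 for TRAC V. With clonotypes of at least 2 UMIs, the length differences by UMIs were 0.253 (TRBC) and -0.234 (TRAC), the TRAC J distance was 21.5 by UMIs, the TRBC V distance was 8.66 by clonotypes and the TRAC composition distance 0.990 by clonotypes. With 1 V gene only, the TRAC V distance was 30.3 by UMIs and 9.34 by clonotypes. Over whole CDR3s the composition distances were 3.08 and 4.62 by UMIs for TRBC and TRAC, and 0.777 by clonotypes for TRBC. At 2-fold, 8 Trbv and 22 Trav labels were called by UMIs, and 0 and 5 by clonotypes. CDR3s of at most 25 residues, an alternative chosen after seeing the data, gave a TRBC length difference of 0.331 by UMIs, and together with leaving out expanded clonotypes, also chosen then, -0.00774 for TRBC and -0.0831 for TRAC. No paired analysis was possible because each treatment and tissue has 1 library. The control library held fewer clonotypes, and 18.6% of them had 1 UMI, against 45.4% in BF10 (TRBC). Many small clonotypes were thus near the limit of detection, in BF10 more than in control. For these, absence from either library is a limit of depth as well. No value can be tied to single mice.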
